A study of Mus musculus with 36 samples.

Results

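The transcripts of 10 core circadian clock genes were followed in mouse liver: the activators Arntl, Clock and Npas2, the repressors Per1, Per2, Per3, Cry1 and Cry2, and the nuclear receptors Nr1d1 and Nr1d2. They were picked by gene symbol, not by their values, and all 10 were found among the 38283 genes of the count table. All 10 also passed the filter on low counts, which left 13945 genes. Liver RNA had been sequenced from 36 male C57Bl/6J mice aged 16 weeks, in 6 groups of 6 mice. Wild-type and heterozygous Pik3r1 WT/Y657* mice were killed fed ad libitum on chow, after a fast of 16 h, or after that fast and 6 h of refeeding with chow. The Y657* allele, a knock-in carried in every tissue and throughout life, encodes a shortened regulatory subunit of phosphoinositide 3-kinase, an enzyme in insulin signalling. The line came from targeted stem cells, and the targeting construct also held a selection marker between LoxP sites.

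Mouse numbers in the labels fell into 3 series. Labels name a mouse by state (ALC for fed, ONF for fasted, RF6 for refed), genotype (WT or MT) and number. All fed mice belong to a middle series, from ALC_WT_847 to ALC_MT_869. The fasted and refed groups drew on a lower series, from ONF_MT_806 to RF6_WT_828, and a higher series, from RF6_WT_896 to ONF_MT_923, with 3 mice of each genotype and state in each. What the series stand for, and the clock time of each harvest, is not given in the sources used here. Mice were kept in alternating light and darkness of 12 h each, and livers were taken before the overnight fast, after it or after refeeding. Feeding state and time of day therefore differed together and cannot be told apart, and fed mice differed from the others in number series as well.

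The molecular clock is a feedback loop in which ARNTL (BMAL1) pairs with CLOCK, or with its relative NPAS2, and switches on the Per and Cry genes through E-box sequences. PER and CRY proteins then return to the nucleus and hold that pair in check, so activator and repressor transcripts peak at different times of day. In a second loop NR1D1 and NR1D2 (REV-ERB alpha and beta) repress Arntl through RORE sequences, and in liver the timing of the loops follows meals as well as light.

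Total counts per mouse ranged from 8839481 to 19542778, with a median of 13596664. Summed hepatocyte markers (Alb, Ttr and 5 others) lay between 46747 and 88911 CPM (counts scaled to the library size adjusted by TMM), and summed pancreatic acinar markers did not exceed 2.44 CPM. The Pik3r1 transcript lay between 74.5 and 182 CPM in single mice. Its counts sum both alleles, so they do not check the genotype labels. In whole liver, fewer cells of a type and less RNA per cell cannot be told apart.

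RefSeq promoter windows on GRCm38.p6, from 250 bases before to 50 bases after a start, were held for 9 of the 10 genes (13 windows). Letter patterns were searched on both strands: the E-box CACGTG, the E'-box CACGTT, the RORE TAGGTCA, the D-box TTATGTAA, which DBP, TEF and HLF bind, and the cyclic AMP response element TGACGTCA. Of 32851 windows in the reference, 7.15% held the E-box, 4.68% the E'-box, 2.61% the RORE, 0.938% the D-box and 1.79% the cyclic AMP response element. The windows shown were picked because they hold a match and cover an activator, repressors and a nuclear receptor, and those of Clock, Npas2, Cry1 and Nr1d2 are described but not printed. Capitals mark the matches, and a match on the other strand reads as its reverse complement.
Arntl, chr7:113207261-113207560, plus strand: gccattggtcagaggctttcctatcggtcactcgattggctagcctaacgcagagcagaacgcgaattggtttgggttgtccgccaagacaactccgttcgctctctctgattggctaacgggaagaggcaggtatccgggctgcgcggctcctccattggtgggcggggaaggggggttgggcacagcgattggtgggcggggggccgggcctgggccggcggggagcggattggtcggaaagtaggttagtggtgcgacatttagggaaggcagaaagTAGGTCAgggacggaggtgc
Per1, chr11:69098699-69098998, plus strand: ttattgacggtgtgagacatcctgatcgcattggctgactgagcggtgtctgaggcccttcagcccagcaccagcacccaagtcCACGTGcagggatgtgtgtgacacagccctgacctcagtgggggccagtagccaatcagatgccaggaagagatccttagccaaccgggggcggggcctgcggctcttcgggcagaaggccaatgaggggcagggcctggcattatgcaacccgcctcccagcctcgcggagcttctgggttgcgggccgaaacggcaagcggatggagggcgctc
Per3, chr4:151044616-151044915, minus strand: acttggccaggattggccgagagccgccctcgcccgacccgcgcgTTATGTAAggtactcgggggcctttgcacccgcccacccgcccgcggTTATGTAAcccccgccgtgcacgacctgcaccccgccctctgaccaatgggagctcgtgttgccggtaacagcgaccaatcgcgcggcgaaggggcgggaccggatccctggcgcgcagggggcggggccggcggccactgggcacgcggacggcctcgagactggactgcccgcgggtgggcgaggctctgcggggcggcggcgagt
Cry2, chr2:92434020-92434319, minus strand: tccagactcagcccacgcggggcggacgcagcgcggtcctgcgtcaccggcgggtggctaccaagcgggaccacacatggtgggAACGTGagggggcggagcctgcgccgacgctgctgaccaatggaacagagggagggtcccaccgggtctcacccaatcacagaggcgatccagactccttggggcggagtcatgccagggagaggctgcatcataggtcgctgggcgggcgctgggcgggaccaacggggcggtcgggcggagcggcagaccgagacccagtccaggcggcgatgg
Nr1d1, chr11:98775328-98775627, minus strand: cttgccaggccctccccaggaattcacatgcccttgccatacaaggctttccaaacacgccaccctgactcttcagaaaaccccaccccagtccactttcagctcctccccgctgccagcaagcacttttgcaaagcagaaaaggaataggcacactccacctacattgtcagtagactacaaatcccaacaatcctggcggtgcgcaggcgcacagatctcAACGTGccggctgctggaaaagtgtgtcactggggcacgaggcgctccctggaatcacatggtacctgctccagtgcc

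In this Arntl window the RORE began 30 bases after the start, and the other Arntl window, which overlaps it, held no match. The E-box of Per1 began 166 bases before the start, and the other Per1 window held none. In Per3 a pair of D-boxes began 205 and 158 bases before the start. The E'-box lay 166 bases before the start in Cry2 and 28 bases before it in Nr1d1. Cry1 held an E-box 60 bases before its start and an E'-box at 79 bases. No match was found in the windows of Clock, Npas2 and Nr1d2, which says only that these letters are not in them. None of the matches is shown to be a working site here.

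Per kilobase of exon, Nr1d2 had the highest mean level over all mice, 19.7 CPM per kb ± 4.30 (SD, n = 36). Nr1d1 followed at 7.31 and Clock at 5.58 CPM per kb, and Per2 and Cry2 both averaged 4.44. Npas2 was lowest at 0.166 CPM per kb. The genes also differed in how far single mice lay apart. On the CPM scale the highest mouse exceeded the lowest 35.4-fold for Per3, 20.2-fold for Arntl, 13.3-fold for Per2 and 10.4-fold for Per1, but 2.33-fold for Clock and 3.34-fold for Nr1d2. Npas2 had no reads in 4 refed mice, so no such ratio is given for it. When the 6 groups were ordered by mean CPM, 1 pair of neighbours in that order, Clock in fed and refed WT/Y657* mice, did not overlap in range, and all other neighbouring groups did. The plot of levels in single mice shows these patterns.

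**Figure D1:**
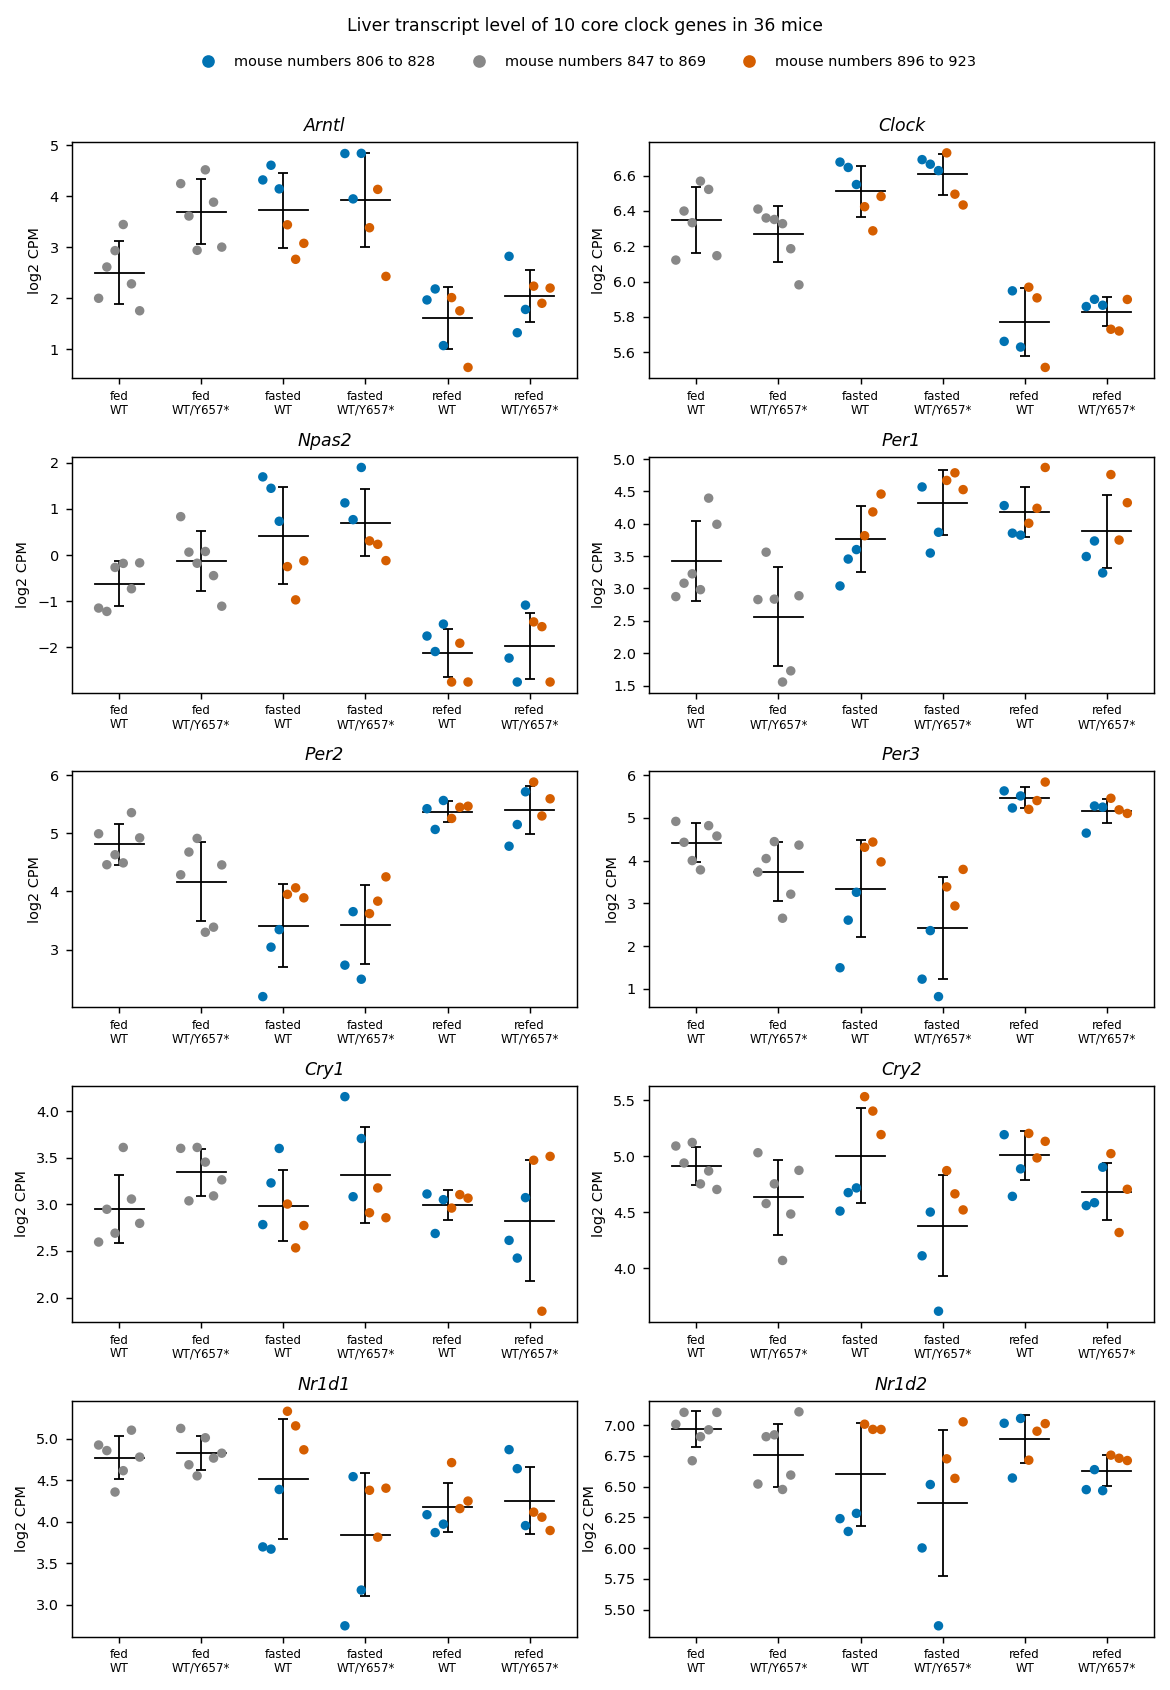
Transcript level of each clock gene in each of 36 mice (log2 CPM with a prior count of 2), by feeding state and genotype. Points are single mice coloured by mouse number series, and black bars show mean ± SD (n = 6). Activators lie lowest and Per2 and Per3 highest in refed mice, and in fasted mice the number series separate for several genes.

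Feeding states were compared within each genotype. After the fast, 3 of the 10 genes were called in wild-type mice (background 32% of all genes tested) and 4 in WT/Y657* mice (background 32.9%), at an adjusted p under 0.05 by edgeR's quasi-likelihood test. Both are shares near those of all genes. Refeeding, compared with the fast, changed 5 genes in wild-type mice (background 30.2%) and the same 5 in WT/Y657* mice (background 31.3%): Arntl, Clock and Npas2 fell, and Per2 and Per3 rose. Refed mice differed from fed mice in 3 genes in wild-type mice, a share near the background of 27.5%. In WT/Y657* mice they differed in 6 genes (background 26.1%). The latter were Arntl (log2 −1.73, SE 0.39), Clock (−0.45, SE 0.086), Npas2 (−2.54, SE 0.61), Per1, Per2 (1.17, SE 0.28) and Per3, and the former Clock (−0.58, SE 0.086), Npas2 (−2.57, SE 0.72) and Per3. The median absolute log2 difference of the 10 genes was 0.31 and 0.54 for fasting, 0.59 and 0.63 for refeeding and 0.58 and 0.85 for refed against fed mice (wild-type and WT/Y657*), against 0.25, 0.25, 0.24, 0.25, 0.23 and 0.22 over all genes in the same order by comparison. Noise as well as change raises a median of absolute values, and here and below no genes of like standard error were compared. The 3 comparisons of states share their mice. Of 37 tested markers of liver and blood cell types, between 5 and 10 were called in each of the 6 comparisons, and the hepatocyte sum was 59225 to 88911 CPM in fasted and 51665 to 76897 in refed wild-type mice. In WT/Y657* mice that sum was 68652 to 86382 CPM when fasted and 57382 to 76005 when refed, and its part in these differences was not tested.

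Arntl encodes the activator BMAL1 and lies at chr7:113207465-113314126 on the plus strand (ENSMUSG00000055116, GRCm38). In wild-type mice its lowest, median and highest levels were 3.23, 5.35 and 10.8 CPM when fed, 6.65, 14.1 and 24.3 when fasted and 1.42, 3.50 and 4.40 when refed. Those of WT/Y657* mice were 7.54, 13.4 and 22.8 CPM when fed, 5.24, 16.4 and 28.6 when fasted and 2.36, 4.02 and 6.94 when refed. Every refed wild-type mouse lay below every fasted one, while fasted WT/Y657* mouse ONF_MT_923, at 5.24 CPM, lay within the refed range of its genotype. The fall on refeeding was −2.21 on the log2 scale (SE 0.41, adjusted p = 0.000104) in wild-type and −2.06 (SE 0.40, adjusted p = 0.000143) in WT/Y657* mice. With fasting Arntl rose in wild-type mice (log2 1.28, SE 0.39, adjusted p = 0.0112). In WT/Y657* mice, whose fed level was already close to the fasted one, the log2 difference was 0.34 (SE 0.36, adjusted p = 0.515). The difference between these responses, −0.95 (SE 0.53, adjusted p = 0.336), did not pass the test.

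Clock encodes the partner of BMAL1 (ENSMUSG00000029238, chr5:76209868-76304792, minus strand). From the lowest to the highest mouse it spanned the smallest range of the genes for which that ratio could be given, and refed mice stood apart from the others. Fasted mice of both genotypes spanned 78.0 to 106 CPM, fed mice 63.0 to 94.8 and refed mice 45.5 to 62.5. No refed mouse reached the level of any fed or fasted mouse. The log2 fall on refeeding was −0.74 (SE 0.086, adjusted p = 2.94e-08) in wild-type and −0.78 (SE 0.086, adjusted p = 6.79e-09) in WT/Y657* mice. The small rise with fasting was called in WT/Y657* mice (log2 0.33, SE 0.085, adjusted p = 0.00235), and the wild-type value was 0.16 (SE 0.086, adjusted p = 0.158).

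Npas2 encodes a relative of CLOCK that can stand in for it (ENSMUSG00000026077, chr1:39193731-39363236, plus strand), and its counts were low throughout. Fasted mice had 5 to 44 counts in the wild-type and 10 to 51 in the WT/Y657* group. Refed mice had at most 2 and 5 counts, and 2 mice of each genotype had none. The log2 fall on refeeding, −4.05 (SE 0.65, adjusted p = 6.88e-06) in wild-type and −3.55 (SE 0.59, adjusted p = 1.15e-05) in WT/Y657* mice, thus rests on 7 and 12 counts summed over the refed groups. Its rise with fasting in wild-type mice (log2 1.48, SE 0.50, adjusted p = 0.0204) was no longer called without mouse ONF_WT_807 (adjusted p = 0.0969) or ONF_WT_824 (0.0686). In WT/Y657* mice the value was 1.01 (SE 0.46, adjusted p = 0.0908), which was called without fed mouse ALC_MT_857 (0.0415).

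Per2 encodes a repressor of the BMAL1 complex (ENSMUSG00000055866, chr1:91415982-91459324, minus strand). In wild-type mice its lowest, median and highest levels were 21.9, 27.4 and 40.8 CPM when fed, 4.42, 12.3 and 16.6 when fasted and 33.4, 43.1 and 47.2 when refed. Those of WT/Y657* mice were 9.69, 20.6 and 29.97 CPM when fed, 5.47, 12.3 and 18.9 when fasted and 27.3, 43.7 and 58.8 when refed. In both genotypes every refed mouse lay above every fasted mouse, and in wild-type mice every fasted mouse also lay below every fed one. The log2 rise on refeeding was 1.85 (SE 0.30, adjusted p = 1.61e-05) in wild-type and 1.91 (SE 0.30, adjusted p = 9.10e-06) in WT/Y657* mice. With fasting Per2 fell in wild-type mice (−1.31, SE 0.30, adjusted p = 0.00097). The WT/Y657* value, −0.75 (SE 0.30, adjusted p = 0.0536), lay just outside the threshold and was called without mouse ALC_MT_866, ALC_MT_868 or ONF_MT_923, with adjusted p-values of 0.0205 to 0.0247. DESeq2 (0.0400), the likelihood ratio test (0.0385), library size without TMM (0.0393) and a stricter count filter (0.0458) also called it.

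Per3, a further Period gene (ENSMUSG00000028957, chr4:151003652-151044665, minus strand), moved in the same direction over a wider range. Wild-type mice spanned 13.6 to 30.1 CPM when fed, 2.67 to 21.5 when fasted and 36.6 to 57.1 when refed. WT/Y657* mice spanned 6.14 to 21.6 CPM when fed, 1.61 to 13.7 when fasted and 24.9 to 43.9 when refed. Refed mice were above all fed and fasted mice of their genotype. The log2 rise on refeeding was 1.84 (SE 0.39, adjusted p = 0.000468) in wild-type and 2.42 (SE 0.41, adjusted p = 2.98e-05) in WT/Y657* mice. The fall with fasting in WT/Y657* mice, −1.11 (SE 0.41, adjusted p = 0.0383), lost its call without any of mice ALC_MT_858, ALC_MT_859, ALC_MT_869, ONF_MT_806, ONF_MT_826, ONF_MT_827 or ONF_MT_922, with adjusted p-values up to 0.0985. The wild-type value was −0.83 (SE 0.39, adjusted p = 0.105). Against fed mice, the refed log2 difference was 1.01 (SE 0.37, adjusted p = 0.0407) in wild-type mice, a call lost without any of mice ALC_WT_848, ALC_WT_849, ALC_WT_850, ALC_WT_860, RF6_WT_815, RF6_WT_828, RF6_WT_900 or RF6_WT_901 (adjusted p up to 0.0905), and 1.31 (SE 0.38, adjusted p = 0.0103) in WT/Y657* mice.

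Per1, the Period gene known for rapid induction by hormones and stress (ENSMUSG00000020893, chr11:69095217-69109960, plus strand), did not follow Per2 and Per3. Fed, fasted and refed wild-type mice had medians of 8.76, 12.95 and 17.3 CPM, with ranges of 7.18 to 20.9, 8.07 to 21.8 and 14.01 to 29.1. WT/Y657* mice had medians of 6.97, 23.2 and 13.2 CPM, with ranges of 2.79 to 11.7, 11.5 to 27.4 and 9.30 to 26.9. The fasted WT/Y657* group was thus the highest of the 6 in median and mean, and it overlapped fed mice of its genotype by less than 1 CPM. With fasting Per1 rose in WT/Y657* mice (log2 1.71, SE 0.33, adjusted p = 0.000157). The wild-type value was 0.29 (SE 0.32, adjusted p = 0.532), and the difference of the responses was 1.42 (SE 0.46, adjusted p = 0.0744). Refed against fed, Per1 was higher in WT/Y657* mice (1.29, SE 0.33, adjusted p = 0.00443), and the wild-type value of 0.69 (SE 0.32, adjusted p = 0.107) was called without mouse ALC_WT_856 (0.0322).

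Cry1 (ENSMUSG00000020038, chr10:85131700-85185064, minus strand) and Cry2 (ENSMUSG00000068742, chr2:92403646-92434043, minus strand) encode the cryptochromes, which inhibit the BMAL1 complex most directly. Neither was called by edgeR's quasi-likelihood test in any of the 6 comparisons of feeding states over both series. Group means lay between 7.53 and 10.4 CPM for Cry1 and between 21.5 and 33.2 CPM for Cry2. The value nearest to a call was the fall of Cry1 on refeeding in WT/Y657* mice (−0.48, SE 0.23, adjusted p = 0.121), which was called without mouse RF6_MT_899 (0.0453). An exon of Cry2 shares 295 bases with D930015M05Rik on the other strand, which had under 1 CPM in every mouse.

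Nr1d1 (ENSMUSG00000020889, chr11:98767932-98775333, minus strand) and Nr1d2 (ENSMUSG00000021775, chr14:18204054-18239127, minus strand) encode the repressors of Arntl. In WT/Y657* mice Nr1d1 had lowest, median and highest levels of 23.4, 27.7 and 34.8 CPM when fed, 6.57, 17.3 and 23.2 when fasted and 14.7, 16.9 and 29.1 when refed. All fasted mice of that genotype lay below all fed ones, and the fall with fasting was called (log2 −0.87, SE 0.27, adjusted p = 0.0133). In wild-type mice the value was −0.13 (SE 0.27, adjusted p = 0.751), and the difference between the responses was −0.74 (SE 0.38, adjusted p = 0.288). Nr1d1 shares 263 exon bases with Thra, which lies on the other strand at 7.68 to 19.2 CPM. The libraries were stranded, but whether counting used the strand is not given in the sources used here. Nr1d2 had group means of 87.8 to 125 CPM and was not called by edgeR's quasi-likelihood test in any of the 6 comparisons of feeding states over both series. Within the lower series it was called on refeeding, as given below.

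**Figure D2:**
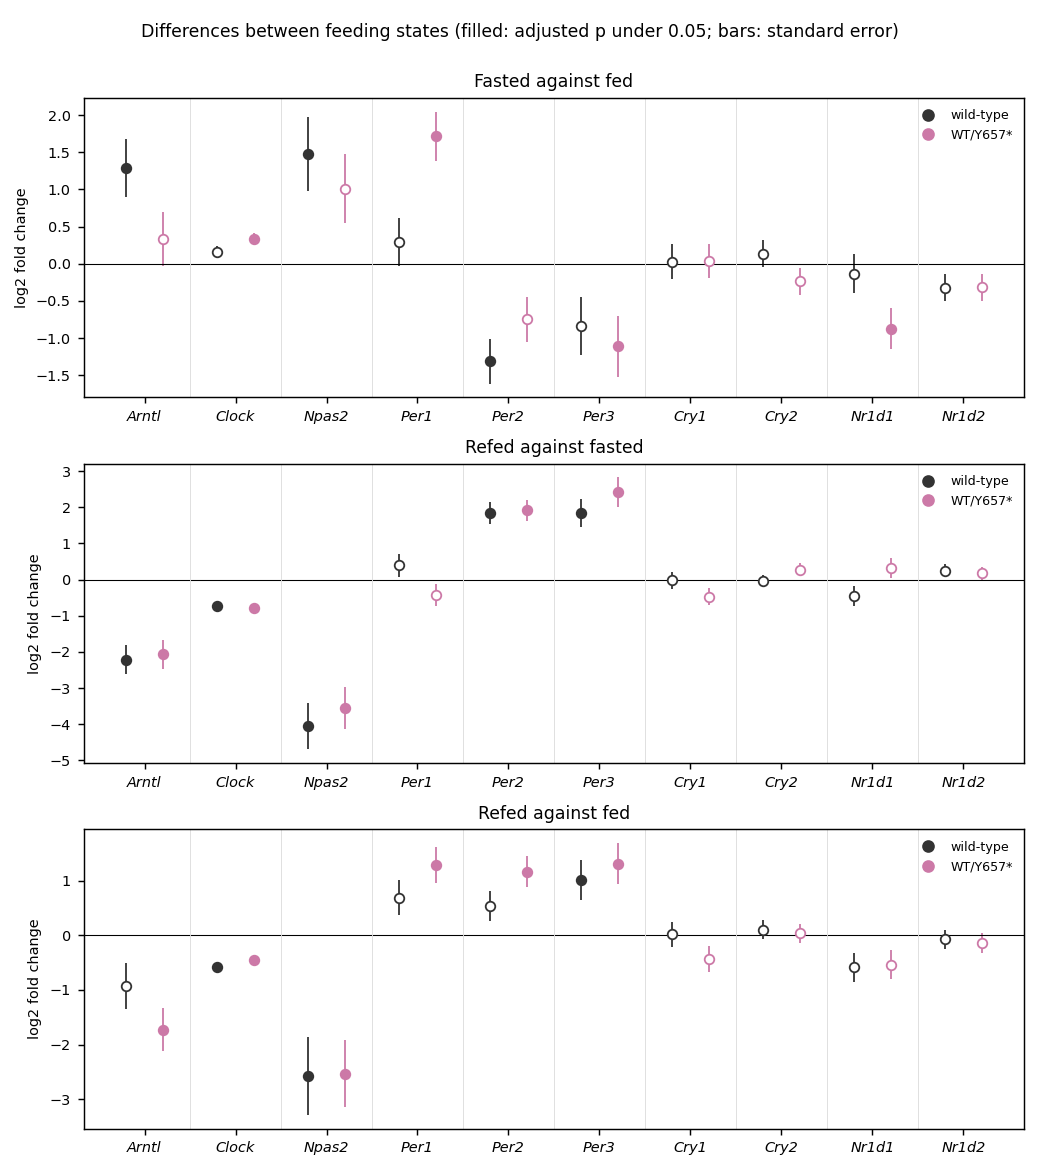
Log2 fold changes of the 10 genes between feeding states in wild-type (dark) and WT/Y657* mice (pink), with standard errors. Filled points passed an adjusted p of 0.05. On refeeding the same 5 genes passed in both genotypes, with Arntl, Clock and Npas2 below 0 and Per2 and Per3 above 0.

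Refeeding could be read within each number series, in 3 against 3 mice. In wild-type mice 6 genes were called in the lower series (background 18.2%) and 5 in the higher series (background 13.8%). In WT/Y657* mice 9 were called in the lower series (background 21%) and 4 in the higher series (background 14%). Clock, Npas2, Per2 and Per3 passed in all 4 of these comparisons, and Arntl passed in 3, its value in the higher series of WT/Y657* mice being −1.38 (SE 0.49, adjusted p = 0.0562). Per3 rose by 2.93 (SE 0.43) and 1.26 (SE 0.38) in the lower and higher series of wild-type mice, and by 3.61 (SE 0.46) and 1.85 (SE 0.40) in WT/Y657* mice. In the lower series of WT/Y657* mice Cry1 fell (−1.01, SE 0.30, adjusted p = 0.0160) and Cry2 rose (0.59, SE 0.20, adjusted p = 0.0359). Nr1d1 (0.88, SE 0.30, adjusted p = 0.0357) and Nr1d2 (0.50, SE 0.18, adjusted p = 0.0471) rose there too, though fasted and refed mice overlapped for both. In the higher series of that genotype Cry1 (0.13), Cry2 (0.017), Nr1d1 (−0.20) and Nr1d2 (−0.053) were not called. Nr1d2 was also the sixth gene called in the lower series of wild-type mice (0.68, SE 0.18, adjusted p = 0.00779). In the higher series of wild-type mice Nr1d2 was at −0.081 and Nr1d1 at −0.74 (SE 0.28, adjusted p = 0.0843).

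Genotypes were compared within each state. In fed mice none of the 10 genes was called by edgeR's quasi-likelihood test (background 2.37%), and 2 had an unadjusted p under 0.05. DESeq2 and edgeR's likelihood ratio test each called 1 while limma-voom called 0. Over all genes they called 644, 516 and 341, and the quasi-likelihood test 330. The median absolute log2 difference was 0.47, against 0.14 over all genes. Arntl had the largest difference. Its levels in fed wild-type mice were 3.23, 3.86, 4.72, 5.98, 7.50 and 10.8 CPM, and in fed WT/Y657* mice 7.54, 7.88, 12.1, 14.6, 18.9 and 22.8 CPM. Only wild-type mouse ALC_WT_850 overlapped the mutant range. The log2 difference was 1.22 (SE 0.39, adjusted p = 0.0780), and DESeq2 gave 1.21 with an adjusted p of 0.0423. Per1 was lower by the same measure (−0.85, SE 0.34, adjusted p = 0.170). Most fed wild-type mice have lower numbers than the fed WT/Y657* mice. Among the 5 fed mice from ALC_WT_856 to ALC_WT_860, Arntl was at 4.72 and 3.23 CPM in wild-type mice and at 18.9, 12.1 and 7.54 CPM in WT/Y657* mice. Of the 37 markers, Dcn, Colec10 and Nkg7 were called higher in fed WT/Y657* mice. The stellate cell sum was 281 to 394 CPM in wild-type and 393 to 539 in WT/Y657* mice, and the Kupffer cell sum 214 to 307 and 208 to 729 CPM. The median Kupffer cell sum was 254 CPM in wild-type and 460 CPM in WT/Y657* mice. All 6 Kupffer cell and macrophage markers had an unadjusted p under 0.05 by edgeR, with a median log2 difference of 0.87, and none was called. The part of these in the Arntl difference was not tested.

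In fasted mice 1 of the 10 genes was called, Cry2, a share near the background of 13.1%. The median absolute log2 difference was 0.33 against 0.18 over all genes. Cry2 was at 22.7, 25.4, 26.2, 36.4, 42.2 and 46.1 CPM in wild-type mice, and at 12.1, 17.2, 22.5, 22.8, 25.2 and 29.1 CPM in WT/Y657* mice. The ranges overlapped. The log2 difference was −0.63 (SE 0.18, adjusted p = 0.0177), and the call was lost without wild-type mouse ONF_WT_918 (adjusted p = 0.0616) or ONF_WT_919 (0.0553), or WT/Y657* mouse ONF_MT_806 (0.0556) or ONF_MT_827 (0.0519). Within each number series the wild-type and WT/Y657* mice did not overlap. The values there were −0.53 (SE 0.20, adjusted p = 0.111) in the lower series (0 genes called of 10 by edgeR, 2 at an unadjusted p under 0.05, background 7.3%) and −0.69 (SE 0.20, adjusted p = 0.0897) in the higher series (0 called, 3 at an unadjusted p under 0.05, background 0.523%). Nr1d1 was at −0.69 (SE 0.27, adjusted p = 0.0932) over both series and was called without mouse ONF_WT_807 (0.0420) or ONF_WT_824 (0.0427). Per3 was at −0.89 (SE 0.42, adjusted p = 0.165). Among the 37 markers Lyve1, Dcn and Colec10 were called higher in fasted WT/Y657* mice, with a stellate cell sum of 335 to 405 CPM in wild-type and 373 to 525 in WT/Y657* mice, and their part in the Cry2 difference was not tested.

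In refed mice no member was called by edgeR, DESeq2, the likelihood ratio test or limma-voom (background 0.0287%), and none had an unadjusted p under 0.05. The median absolute log2 difference was 0.26, against 0.12 over all genes. With only the refed libraries in edgeR's fit, 3 of 9 members tested had an unadjusted p under 0.05. With number series as a term 1 did, and within each of the series 1 did. None was called in these settings, and the gap in medians is not read as a genotype effect. The estimate for Cry2 was −0.32 (95% interval −0.67 to 0.023), and that for Arntl was 0.42 (−0.42 to 1.27). Both intervals include 0.

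**Figure D3:**
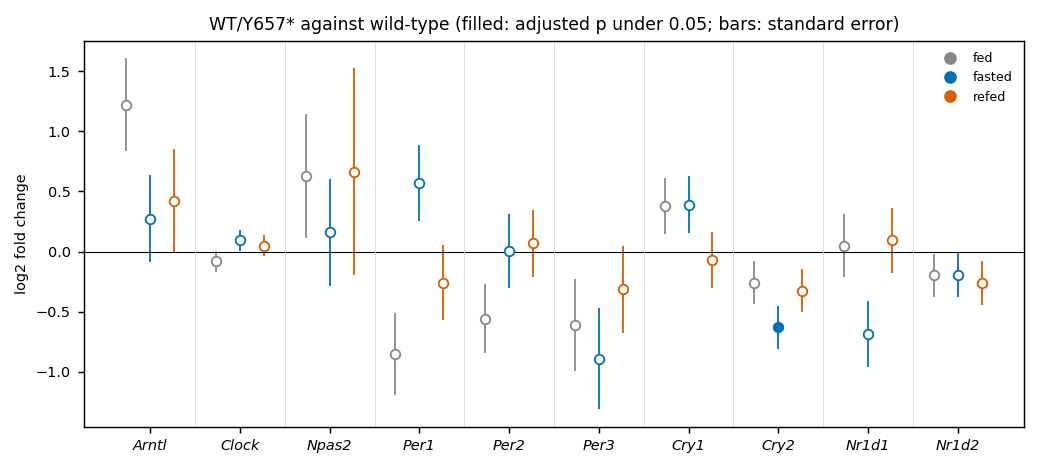
Log2 fold changes of the 10 genes in WT/Y657* against wild-type mice when fed (grey), fasted (blue) and refed (orange), with standard errors and 6 against 6 mice each. The filled point, Cry2 in fasted mice at −0.63, is the single value that passed an adjusted p of 0.05.

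The difference of the fasting response between genotypes was called for none of the 10 genes by edgeR's quasi-likelihood test (background 4.35%). At an unadjusted p under 0.05 there was 1, Per1, and DESeq2, the likelihood ratio test and limma-voom each called it. Over all genes those tests called 844, 664 and 578, and the quasi-likelihood test 607. Leaving out fed WT/Y657* mouse ALC_MT_858 (adjusted p = 0.0324) or fasted wild-type mouse ONF_WT_920 (0.0499) also gave the call. The difference of the refeeding response was called for none by any of these tests (background 2.06%), with 1 gene, Nr1d1, at an unadjusted p under 0.05 (0.78, SE 0.38, adjusted p = 0.322).

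Within the fasted mice, the number series set several clock genes apart. Per3 in the lower series was at 2.67, 5.94 and 9.42 CPM in wild-type and at 1.61, 2.19 and 4.99 CPM in WT/Y657* mice. In the higher series it was at 15.5, 19.7 and 21.5 CPM in wild-type and at 7.52, 10.3 and 13.7 CPM in WT/Y657* mice. Within each genotype every mouse of the higher series lay above every mouse of the lower series. Higher minus lower, over both genotypes and 6 against 6 mice, the log2 difference was 1.82 (SE 0.32, adjusted p = 0.00910). The call was lost without mouse ONF_MT_827 (adjusted p = 0.0785).

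Of the 10 genes 3 were called, all higher in the higher series, against a background of 0.179%, or 25 genes, and 9 of the 10 had an unadjusted p under 0.05. DESeq2, the likelihood ratio test and limma-voom each called 6, out of 58, 46 and 32 genes called over all. The median absolute log2 difference was 0.82 for the clock genes and 0.12 over all genes. The comparison was made because the series were known to differ in clock genes from earlier work on these data, so it is a description of that difference and no independent support for it. Nr1d2 was at 70.2, 75.4 and 77.7 CPM in the lower and 125, 125 and 128 CPM in the higher series of wild-type mice. It was at 41.2, 63.9 and 91.4 against 94.7, 106 and 130 CPM in WT/Y657* mice. The 2 series did not overlap, the log2 difference was 0.76 (SE 0.13, adjusted p = 0.00447), and the call held without any single mouse. With only the fasted libraries in the fit, 2 of the 10 genes were called, Cry2 and Npas2 (adjusted p = 0.0274 for Npas2). The adjusted p there was 0.134 for Nr1d2 and 0.0870 for Per3. Cry2 was at 22.7, 25.4 and 26.2 against 36.4, 42.2 and 46.1 CPM in wild-type mice and at 12.1, 17.2 and 22.5 against 22.8, 25.2 and 29.1 CPM in WT/Y657* mice. Its log2 difference was 0.67 (SE 0.14, adjusted p = 0.0300), a call lost without any 1 of mice ONF_MT_806, ONF_WT_807, ONF_WT_824, ONF_WT_825, ONF_MT_827, ONF_WT_918, ONF_WT_919, ONF_MT_921, ONF_MT_922 and ONF_MT_923, with adjusted p-values of 0.0517 to 0.170.

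The other genes did not pass edgeR's quasi-likelihood test, with values that pointed both ways. Npas2 and Nr1d1 were called by each of the other 3 tests, Per2 by DESeq2 and the likelihood ratio test, and Arntl by limma-voom (adjusted p = 0.0266). Arntl was at 17.6, 19.9 and 24.3 CPM in the lower and 6.65, 8.30 and 10.7 CPM in the higher series of wild-type mice, and at 15.3, 28.5 and 28.6 against 5.24, 10.3 and 17.4 CPM in WT/Y657* mice. Its log2 difference was −1.21 (SE 0.32, adjusted p = 0.172). Npas2 had 13 to 51 counts in the lower and 5 to 13 in the higher series, which did not overlap on the CPM scale, and its log2 difference was −1.66 (SE 0.39, adjusted p = 0.0695). Per2 (1.003, SE 0.27, adjusted p = 0.181), Nr1d1 (0.88, SE 0.21, adjusted p = 0.0983) and Per1 (0.71, SE 0.28, adjusted p = 0.449) were higher in the higher series by this estimate, and Cry1 (−0.60, SE 0.22, adjusted p = 0.369) and Clock (−0.16, SE 0.084, adjusted p = 0.562) lower. Without WT/Y657* mouse ONF_MT_826, in which Nr1d1 and Nr1d2 were the highest of the lower series, 6 genes were called, Npas2, Per2 and Nr1d1 among them, with adjusted p-values of 0.0323, 0.0424 and 0.000204. Without mouse ONF_MT_827, 1 was called.

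The same series did not separate refed mice in this way. None of the 10 genes was called there by edgeR, DESeq2, the likelihood ratio test or limma-voom (background 0.136%), 1 had an unadjusted p under 0.05 (Per1, 0.63, SE 0.28, adjusted p = 0.788), and the median absolute log2 difference was 0.115 against 0.0966 over all genes. Per3 was at 0.10 (SE 0.26) and Arntl at −0.12 (SE 0.37). When the series difference itself was compared between fasted and refed mice, none was called by edgeR's quasi-likelihood test (background 0.0143%). At an unadjusted p under 0.05 there were 7. DESeq2 called 1, Per3 (edgeR log2 1.72, SE 0.41, adjusted p = 0.281), and 20 over all genes. Without mouse ONF_MT_826, Nr1d1 (0.0170) and Nr1d2 (0.0312) were called. A genotype effect that differed between series was called for none of the 10 genes by any of the 4 tests, in fasted mice (background 0%, none at an unadjusted p under 0.05) or in refed mice (background 0%, 1 at an unadjusted p under 0.05).

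Of the 37 cell type markers none was called between the series in fasted mice by edgeR, and 4 had an unadjusted p under 0.05; other tests were not run on them. The hepatocyte sum was 59225 to 78008 CPM in the lower and 81474 to 88911 in the higher series of fasted wild-type mice, and 68652 to 86382 and 70251 to 80814 CPM in WT/Y657* mice. Total counts of fasted mice were 8839488 to 14630431 in the lower and 12133573 to 14482781 in the higher series. The part of these in the clock gene differences was not tested.

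**Figure D4:**
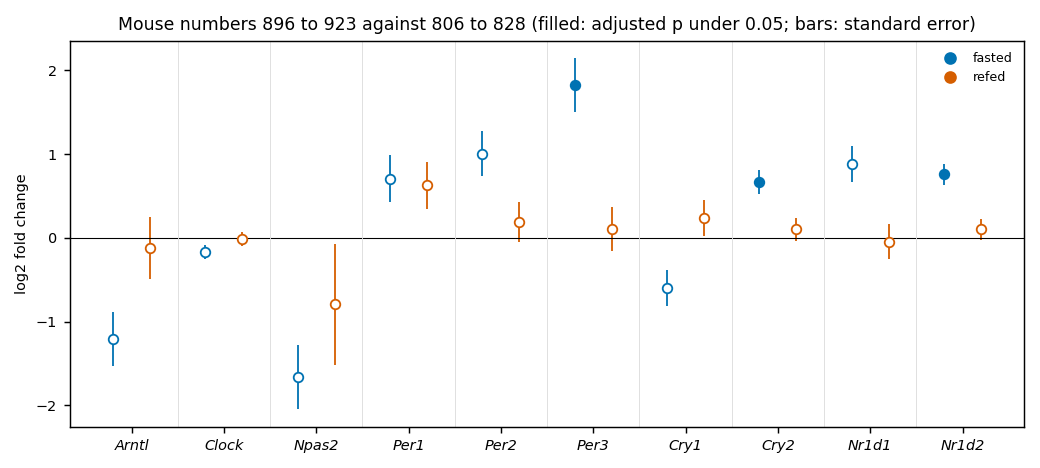
Log2 fold change of each clock gene in the higher against the lower mouse number series, in fasted (blue) and refed mice (orange), with standard errors and 6 against 6 mice. The filled points, Per3 at 1.82, Cry2 at 0.67 and Nr1d2 at 0.76 in fasted mice, passed an adjusted p of 0.05.

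To see whether the genes varied together from mouse to mouse, the mean of each genotype, state and series was removed from log2 CPM and the 45 pairs were correlated over 36 mice. By a two-sided permutation test within those cells (100000 resamples), adjusted over the 45 pairs, 10 passed on Pearson's r, 7 positive and 3 negative. Pairs of other genes were not tested, so whether 10 of 45 is more than other genes give is not known. Per2 and Per3 were closest (r = 0.88, rho = 0.87, permutation p = 1e-05, the smallest that these resamples can give, adjusted 0.000337, and r = 0.84 without the 2 mice farthest from the median of Per2). Per3 and Nr1d2 rose and fell together (r = 0.70, rho = 0.72, permutation p = 5e-05, adjusted 0.00075, r = 0.78 without 2 mice). Arntl ran against Per3 (r = −0.71, rho = −0.76, permutation p = 1.5e-05, adjusted 0.000337, r = −0.70 without 2 mice) and against Nr1d2 (r = −0.67, rho = −0.75, permutation p = 9.5e-05, adjusted 0.00107, r = −0.64 without 2 mice).

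The other pairs that passed were Arntl and Per2 (r = −0.58, rho = −0.61, adjusted permutation p = 0.0105), Per2 and Nr1d2 (r = 0.58, rho = 0.57, adjusted permutation p = 0.0270), and 4 that did not pass on Spearman's rho: Per3 and Cry2 (r = 0.58, rho = 0.49), Per2 and Cry2 (0.57 and 0.52), Arntl and Clock (0.56 and 0.49) and Per1 and Per2 (0.54 and 0.44). Without the 2 farthest mice the r of these 4 pairs was 0.47, 0.42, 0.44 and 0.41. Without WT/Y657* mouse ALC_MT_866, fed, 5 pairs passed. All values of a mouse come from 1 library and share its scaling. No pair with Nr1d1, Cry1 or Npas2 passed.

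**Figure D5:**
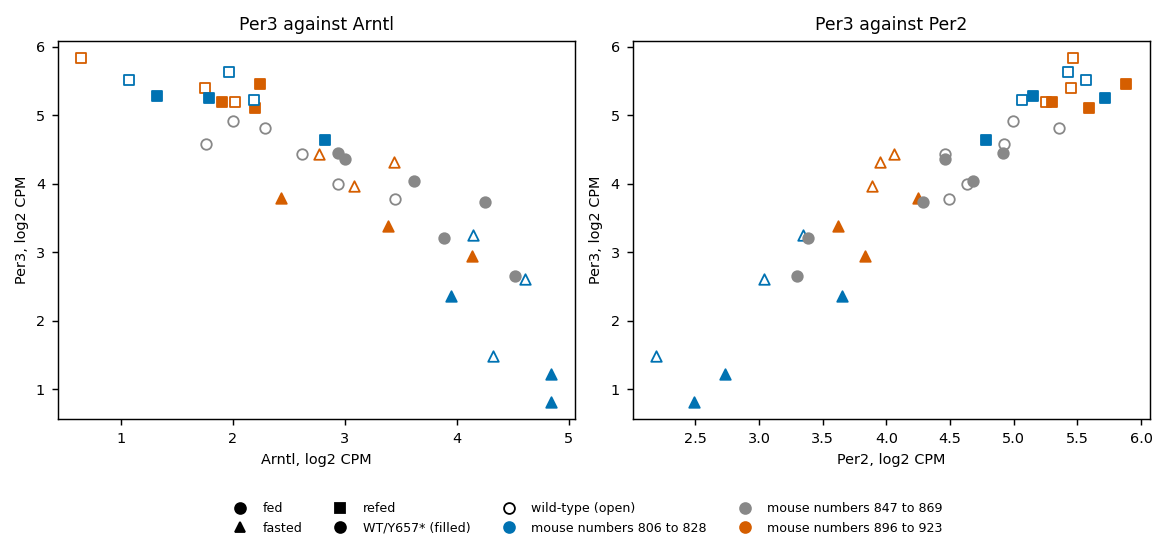
Per3 against Arntl (left) and against Per2 (right) in each of 36 mice, log2 CPM. Symbols give the feeding state, filled symbols WT/Y657* mice and colours the mouse number series. Per3 falls as Arntl rises (r = −0.91 over the 36 mice drawn) and rises with Per2 (r = 0.94). With the mean of each genotype, state and series removed, which is not drawn, r was −0.71 and 0.88.

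For each clock gene the gene most and least like it outside the 10 was sought, with the 10 clock genes left out, among 12592 genes with a mean of at least 1 CPM, by Pearson's r of log2 CPM over the 36 mice. This r includes the differences between groups and is a description. By the same measure Per2 was closer to Per3 (r = 0.94) than to any gene outside the 10. Arntl ran more strongly against Per3 (r = −0.91) than against any gene outside the 10. Per3 itself was closer to Dbp than to either of them. Dbp, a D-box factor, was most like Per3 (r = 0.95), and Wee1, a kinase of cell division, most like Per2 (0.90). Tef, another D-box factor, was most like Nr1d2 (0.79), and Bhlhe41, a repressor of the E-box, most like Cry2 (0.83). Lgalsl was most like Arntl (0.89) and Npas2 (0.90) and least like Per3 (−0.89), Tab2 was most like Clock (0.90), Plekha8 most like Per1 (0.76), Slc38a3 most like Nr1d1 (0.75) and Wdr91 most like Cry1 (0.54). The least like genes outside the 10 were Wee1 for Arntl (−0.90), Pdk4 for Per2 (−0.92), Tnks1bp1 for Clock (−0.88), Riok2 for Npas2 (−0.89), Tnfaip2 for Per1 (−0.81), Gjb2 for Cry1 (−0.67), Desi2 for Cry2 (−0.79), Gas2l1 for Nr1d1 (−0.71) and Cdkn1a for Nr1d2 (−0.79).

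The wider clock was read through 4 lists. Of 10 tested loop and D-box factors, 6 were called on refeeding in wild-type mice (4 higher, background 30.2%) and 8 in WT/Y657* mice (7 higher, background 31.3%). Ciart, a repressor of the BMAL1 complex, rose in both (log2 2.49, SE 0.44, and 2.23, SE 0.44), and Nfil3, which competes with DBP at D-boxes, fell in both (−0.69, SE 0.20, and −1.08, SE 0.20). With fasting 3 and 4 were called (background 32% and 32.9%), shares near those of all genes, with Bhlhe40 lower by the log2 values of −1.21 (SE 0.29) in wild-type and −1.997 (SE 0.30) in WT/Y657* mice. Between genotypes Bhlhe40 was called in fasted mice (−1.19, SE 0.30, adjusted p = 0.00736). In fed mice none was called by edgeR (background 2.37%), with 4 at an unadjusted p under 0.05, and in refed mice none and none. Between the number series of fasted mice 3 were called (background 0.179%), all higher in the higher series: Dbp (2.33, SE 0.37, adjusted p = 0.00447), Tef (0.92, SE 0.18, adjusted p = 0.0208) and Bhlhe41 (2.38, SE 0.48, adjusted p = 0.0201). Dbp was at 0.907 to 13.1 CPM in fasted mice of the lower and 9.32 to 42.5 CPM in those of the higher series.

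Of 18 clock output genes, 13 were called on refeeding in wild-type mice (background 30.2%) and 17 in the mutant mice (background 31.3%). Wee1 rose (1.68, SE 0.32, and 1.96, SE 0.34), as did Tfrc, the transferrin receptor (2.05, SE 0.15, and 2.03, SE 0.15), and Elovl3, a fatty acid elongase, fell (−2.85, SE 0.31, and −3.22, SE 0.32). Between the series of fasted mice Wee1 (1.44, SE 0.28, adjusted p = 0.0156) and Hsd3b5 (2.36, SE 0.49, adjusted p = 0.0300) were higher and Cdkn1a, a cell cycle inhibitor, lower (−2.58, SE 0.50, adjusted p = 0.0180) in the higher series. Between genotypes 3 outputs were called in fasted mice (background 13.1%): Cdkn1a (2.54, SE 0.64, adjusted p = 0.00793), Noct (0.90, SE 0.16, adjusted p = 0.000406) and Tsku (0.96, SE 0.28, adjusted p = 0.0200). With fasting 7 and 9 outputs were called in the wild-type and WT/Y657* mice (background 32% and 32.9%).

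Among 18 genes whose products modify or stabilise clock proteins, 5 were called on refeeding in wild-type mice (background 30.2%), a share near that of all genes, and 8 in the mutant mice (background 31.3%). Usp2, a deubiquitinase (1.85, SE 0.34, and 1.23, SE 0.33), and Nampt, which makes an NAD precursor (0.75, SE 0.12, and 0.54, SE 0.12), are also in the output list, and Csnk1d, a kinase of PER proteins, fell (−0.34, SE 0.059, and −0.25, SE 0.059). Between genotypes 1 was called in fed mice (background 2.37%), Csnk1e (0.53, SE 0.15, adjusted p = 0.0464). None of these modifiers differed by the test between the series of fasted mice (edgeR, 1 at an unadjusted p under 0.05).

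Of 15 tested genes that report cues known to induce Per genes, such as glucocorticoids, cyclic AMP and heat, 3 were called between genotypes in fasted mice (background 13.1%), all higher in WT/Y657* mice. These were the glucocorticoid targets Fkbp5 (1.16, SE 0.19, adjusted p = 0.000143) and Tsc22d3 (0.83, SE 0.25, adjusted p = 0.0238) and the cold-inducible Rbm3 (0.39, SE 0.13, adjusted p = 0.0348). The fasting response differed between genotypes for 3 (background 4.35%): Tsc22d3 (1.45, SE 0.35, adjusted p = 0.0151), Fkbp5 (1.07, SE 0.27, adjusted p = 0.0208) and Hnf4a (0.41, SE 0.12, adjusted p = 0.0333). Sgk1 and Dusp1, in the same list, were called in neither comparison. Per1 stood at 1.42 (SE 0.46, adjusted p = 0.0744) for the difference of the fasting response. Whether any of these cues had a part in the Per1 value was not tested. With fasting 6 and 8 cue genes were called (background 32% and 32.9%) and on refeeding 9 and 8 (background 30.2% and 31.3%), in wild-type and WT/Y657* mice. Between the series of fasted mice none was called by edgeR, with 1 at an unadjusted p under 0.05.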

How the data were processed

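The authors deposited estimated counts per gene and mouse, without normalization; 3.64% of the non-zero values were not whole, and all were rounded here. The submitters' notes name Cuffdiff, featureCounts, SAMtools and edgeR, with no versions, and the build mm9. Deposited loci nevertheless overlapped the same GENCODE M21 gene on GRCm38 for 99.8% of 36425 genes compared, and coordinates are from that annotation. A second deposited table, of fitted means, was not used.

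The rounded counts went into edgeR 4.0.16 (R 4.3.3): filterByExpr, TMM, glmQLFit (robust) and two-sided glmQLFTest over all 36 libraries, with 1 coefficient per group (6) or per group and number series (10), and Benjamini-Hochberg adjustment over all 13945 genes. Library totals and TMM gave the CPM. The fit was tested on simulated counts. Tried as alternatives were limma-voom (limma 3.58.1), DESeq2 1.42.0, the likelihood ratio test of edgeR, other scalings and filters, fewer libraries, number series as a term, single series, and each mouse left out.

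The members and lists were chosen with earlier results of these data known. Named genes were all members, as far as a comparison turned on them, the non-members most and least like each member (mean of at least 1 CPM) and up to 3 called genes with the smallest p of each list. Mice are the replicates. Some results of single genes are not reported here.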

Additional observations from a re-analysis of the deposited data

Results flagged for a closer look

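Among the 60 combinations of gene and group, 1 had a mouse that stood apart by Dixon's criterion (above 0.625 for 6 mice). Cry1 in refed wild-type mouse RF6_WT_816 was at 6.29 CPM, while the other 5 mice of its group lay between 7.64 and 8.50 CPM. The ratio, taken on log2 CPM and not on CPM, was 0.643. Chance alone flags about 1 group in 20, so a single such mouse among 60 groups is fewer than chance gives.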

How the results depend on the processing

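No value that was called changed direction under any alternative. Of 3686 values of single clock genes under alternatives, 43 lost and 47 gained a call, and 146 changed sign while being uncalled both times. For numbers of genes called of 10, the genotype effect in fed mice gave 0 as reported and 1 with library size alone, with DESeq2 and with the likelihood ratio test. Over all genes those settings called 756, 644 and 516, against 330 as reported. The genotype effect in fasted mice gave 1, and 0 with only the libraries compared and within each series. The difference of the fasting response gave 0, and 1 with DESeq2, the likelihood ratio test and limma-voom. Refed against fed wild-type mice gave 3, and 5 with only the libraries compared. Refeeding in WT/Y657* mice gave 5, and 9 within the lower series. The number series in fasted mice gave 3, and 6 with DESeq2, the likelihood ratio test and limma-voom. The series difference between fasted and refed mice gave 0, and 1 with DESeq2. Pairs of genes that varied together numbered 10, and 32 when only group means were removed, which leaves the series differences in. The cause of the other changes was not tested.

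With each mouse left out in turn the numbers ranged from 0 to 2 for the genotype effect in fasted mice, 2 to 3 for fasting and 2 to 4 for refed against fed in wild-type mice, 3 to 5 for fasting and 5 to 6 for refeeding in WT/Y657* mice, 0 to 1 for the difference of the fasting response, 1 to 6 for the series in fasted mice, 0 to 2 for its difference from refed mice and 5 to 11 for the pairs. They stayed at 5 for refeeding in wild-type mice, at 6 for refed against fed in WT/Y657* mice, and at 0 for the other comparisons. No paired analysis was possible because no 2 groups share mouse numbers. Contrasts of fed with fasted or refed mice are not reported with number series as a term. All fed mice are of 1 series, which no other group holds, so the term cannot separate series from state there. Depth limits Npas2, with at most 51 counts in a mouse.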
